A study of Homo sapiens with 6 samples.

Results

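The genes described here are 37 genes of cell adhesion: 18 integrin chains, 18 genes for proteins of the extracellular matrix, and CD44, a surface receptor for the matrix sugar hyaluronan. They were taken by gene symbol from a table of 57150 genes. The symbols matched 38 rows, because ITGB3 has 2 rows, and the row with the higher mean level was kept. RNA-seq libraries were made from K562 cells, a human chronic myelogenous leukemia line with erythroid features that grows in suspension, harvested 72 h after siRNA transfection. There were 3 control siRNA libraries and 3 libraries of a combined depletion of αCP1 and αCP2, poly(C)-binding proteins encoded by PCBP1 and PCBP2, and the study asked how their depletion alters splicing. All 6 libraries came from the same transfected line, and no untransfected cells were included. The table gives 1 FPKM value (fragments per kilobase of transcript per 1000000 mapped fragments) and 1 estimated count per gene and group. No value therefore has a replicate check, and no standard deviation was computed and no test run here; the authors' own test columns in the table were not used. The estimated counts sum to 13699340 for KD and 11680567 for CTRL, the labels of both columns. Both sums are below the mapped read pairs that the study lists for any single library, so they are not the sum of a group's libraries, and the way they were scaled is not given in the sources used here. Counting intervals are computed from these counts as they stand and may not equal the counting error of the sequenced reads.

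The columns are called by their labels throughout, since 1 of both targeted genes was higher in KD and the other nearly equal. The values do not settle whether the labels of the columns are the right way round, and each direction given below rests on them. PCBP1 was listed at 184 FPKM in KD and 188 FPKM in CTRL, and PCBP2 at 531 FPKM in KD and 342 FPKM in CTRL.

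Integrins are receptors built from 1 alpha and 1 beta chain, and the pair decides which ligand is bound. ITGB1 joins many alpha chains to make receptors for collagen, laminin and fibronectin. ITGAV pairs with several beta chains that bind the RGD motif of vitronectin and fibronectin, ITGA6 and ITGB4 form the laminin receptor of hemidesmosomes, and ITGA4, ITGAL, ITGAM, ITGB2, ITGB7 and the platelet chain ITGA2B belong to blood cells. K562 cells are known for the pair of ITGA5 and ITGB1 as their fibronectin receptor. On the matrix side, a collagen molecule is a triple helix of alpha chains, and a laminin is a cross-shaped trimer of 1 alpha, 1 beta and 1 gamma chain that forms sheets in the basement membrane together with type IV collagen.

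The listed markers of the labelled line were largely absent from both columns, and the values do not settle whether the table is of the labelled cells. Of 13 erythroid and K562 markers, 8 were listed at 0 in both columns, among them the erythroid transcription factors GATA1, TAL1 and KLF1. EPOR, the erythropoietin receptor, at 3.55 FPKM in KD and 5.08 FPKM in CTRL, and the fetal globin gene HBG2, at 4.33 and 1.63 FPKM, were the 2 of these 13 at 1 FPKM or more in both columns. The list holds the globin genes HBG1, HBG2 and HBZ but not HBE1, whose level is not given here. Of 12 general blood cell markers, VAV1 alone reached that level, at 2.23 FPKM in KD and 1.70 FPKM in CTRL, and PTPRC, the leukocyte antigen CD45, was listed at 0. A count of 0 allows up to 3 counts, or 0.219 CPM (counts per 1000000 of the column total) in KD and 0.257 CPM in CTRL, counting error only. None of 5 megakaryocyte markers (ITGA2B among them) and none of the 4 endothelial markers found reached 1 FPKM in both columns. Of 8 epithelial markers, 6 did: the keratins KRT18 (2310 FPKM in KD, 1748 in CTRL), KRT8 (1505 and 819 FPKM) and KRT7 (540 and 604 FPKM), the transcription factor ELF3, the tight junction gene CLDN4 and the surface antigen EPCAM. KRT19 was at 0 and CDH1 (E-cadherin) at 0.363 FPKM in KD and 0.426 FPKM in CTRL. Of 11 fibroblast markers, 3 of which are also among the 37 genes, 4 reached 1 FPKM in both columns and 4 were at 0, and their FPKM summed to 20.1 in KD and 11.8 in CTRL. The summed FPKM of the erythroid list was 8.74 in KD and 8.03 in CTRL, and that of the epithelial list was 4426 and 3258. The part of these marker levels in the results below was not tested.

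**Figure D1:**
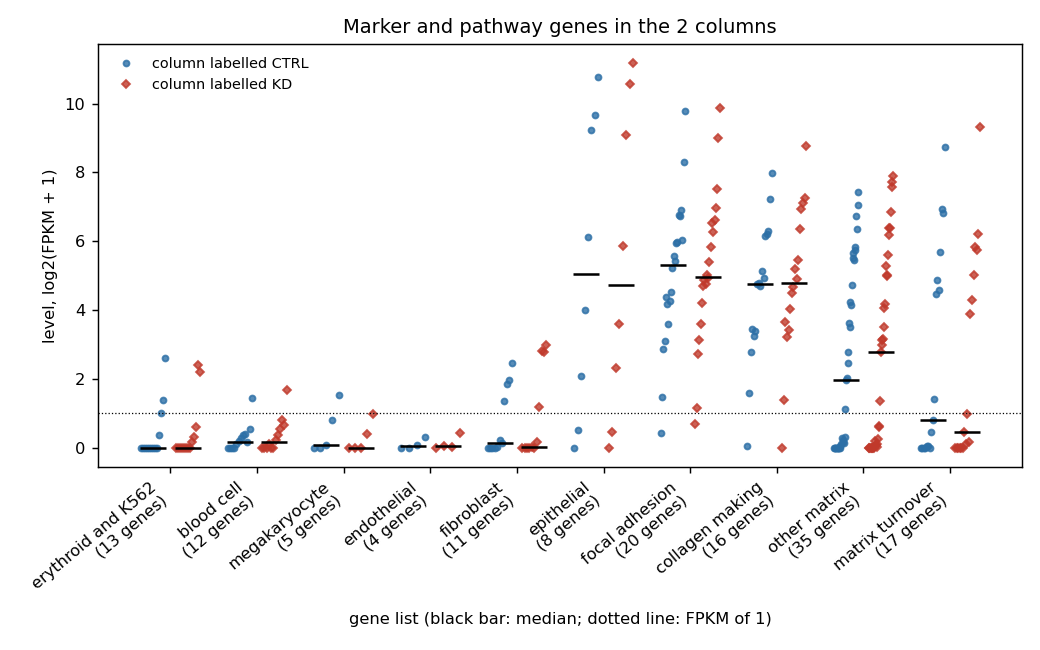
Level of each gene of 10 lists as log2(FPKM + 1), with 1 point per gene in the column labelled CTRL (blue) and KD (red), the median as a black bar and 1 FPKM as a dotted line. The erythroid and blood cell lists lie mostly at 0, while the epithelial, focal adhesion and collagen-making lists have most of their genes above 1 FPKM in both columns.

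The adhesion genes were split between high and absent. Of the 37 genes, 24 had at least 1 FPKM in both columns, 12 were under 1 FPKM in both, and ITGA2B lay between, at 0.983 FPKM in KD and 1.88 FPKM in CTRL. The summed FPKM of the 37 genes was 1443 in KD and 1250 in CTRL, of which the integrins gave 501 and 579 and the matrix genes 509 and 356. CD44 was the most abundant of the 37, at 433 FPKM in KD (7331 estimated counts) and 315 FPKM in CTRL (7024 counts), above 98.5% of the 23068 genes with any signal. ITGB1 followed at 221 FPKM in KD (9642 counts) and 233 FPKM in CTRL (10120 counts), and ITGB5, a partner of ITGAV, at 140 FPKM (2707 counts) and 154 FPKM (2911 counts). Next in order of mean level came the laminin chains LAMB1 and LAMA5 and then ITGB4.

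Among the beta chains, ITGB1 held 53.4% of the summed beta chain FPKM in KD and 50.7% in CTRL, ITGB5 33.9% and 33.5%, and ITGB4 12.0% and 15.2%. ITGB4 was at 49.7 FPKM in KD (1141 counts) and 69.9 FPKM in CTRL (1037 counts), so its FPKM was lower and its count higher in KD. ITGB8, another partner of ITGAV, was at 2.58 FPKM in KD and 2.20 FPKM in CTRL. ITGB3, the platelet and endothelial partner of ITGAV, was at 0.124 and 0.104 FPKM, and ITGB6, the epithelial partner, at 0.0577 and 0.0366 FPKM. The beta chains present in quantity were thus ITGB1, ITGB5 and ITGB4.

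Among the 10 alpha chains of the chosen genes, ITGA3, a laminin receptor chain of epithelia, was the highest by FPKM. It was at 32.9 FPKM in KD (1314 counts) and 51.7 FPKM in CTRL (1491 counts). It made up 37.9% of the summed FPKM of these alpha chains in KD and 43.3% in CTRL. ITGAE, an alpha chain outside the chosen genes, was at 56.6 FPKM in KD and 45.5 FPKM in CTRL and is not in that sum. ITGA5, the chain that binds fibronectin, came second by FPKM. It was at 23.8 FPKM in KD (1023 counts) and 28.8 FPKM in CTRL (1539 counts), or 27.4% and 24.2% of the alpha chain sum. By counts ITGA5 was above ITGA3 in CTRL and below it in KD. CPM per kilobase of the longest annotated transcript gave the same order: 26.4 for ITGA5 against 23.3 for ITGA3 in CTRL, and 14.9 against 17.5 in KD. ITGA6 was at 11.3 FPKM in KD (746 counts) and 17.0 FPKM in CTRL (1130 counts). The collagen receptor chain ITGA1 was at 11.1 FPKM in KD and 10.5 FPKM in CTRL, and the other collagen receptor chain, ITGA2, at 1.45 FPKM in KD (141 counts) and 3.25 FPKM in CTRL (316 counts). ITGAV was at 5.10 FPKM in KD (411 counts) and 6.11 FPKM in CTRL (497 counts). ITGA6 and ITGA1 were within 1 FPKM of each other in KD and differed in CTRL, and without replicates neither order has an error beyond counting. ITGA1 and ITGA2 share 1 locus of the table on chromosome 5 (51971026 to 52390609, hg19). That locus holds 7 rows, and sharing it does not show that both genes overlap.

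The 6 blood cell integrins of the chosen genes were at or near 0. ITGA4, a chain of the leukocyte receptor for VCAM1, had 0 counts in both columns. ITGAL had 0 counts in KD and 1 in CTRL, ITGAM 2 and 1, and ITGB7 1 and 0. ITGB2, the beta chain shared by the leukocyte receptors, was at 0.308 FPKM in KD (9 counts) and 0.531 FPKM in CTRL (14 counts). ITGA2B was the highest of these chains by FPKM and rested on 4 counts in KD and 6 in CTRL. Of 8 further integrin genes outside the chosen ones, 4 were at 0 in both columns. ITGAE, the alpha chain of a receptor for E-cadherin, was the 1 gene of the 8 above 1 FPKM. It was at 56.6 FPKM in KD (362 counts) and 45.5 FPKM in CTRL (307 counts). Its FPKM was above that of every chosen alpha chain in KD, and below that of ITGA3 alone in CTRL. By estimated counts it was below ITGA3, ITGA5, ITGA1, ITGA6 and ITGAV in both columns, so its rank depends on the measure.

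**Figure D2:**
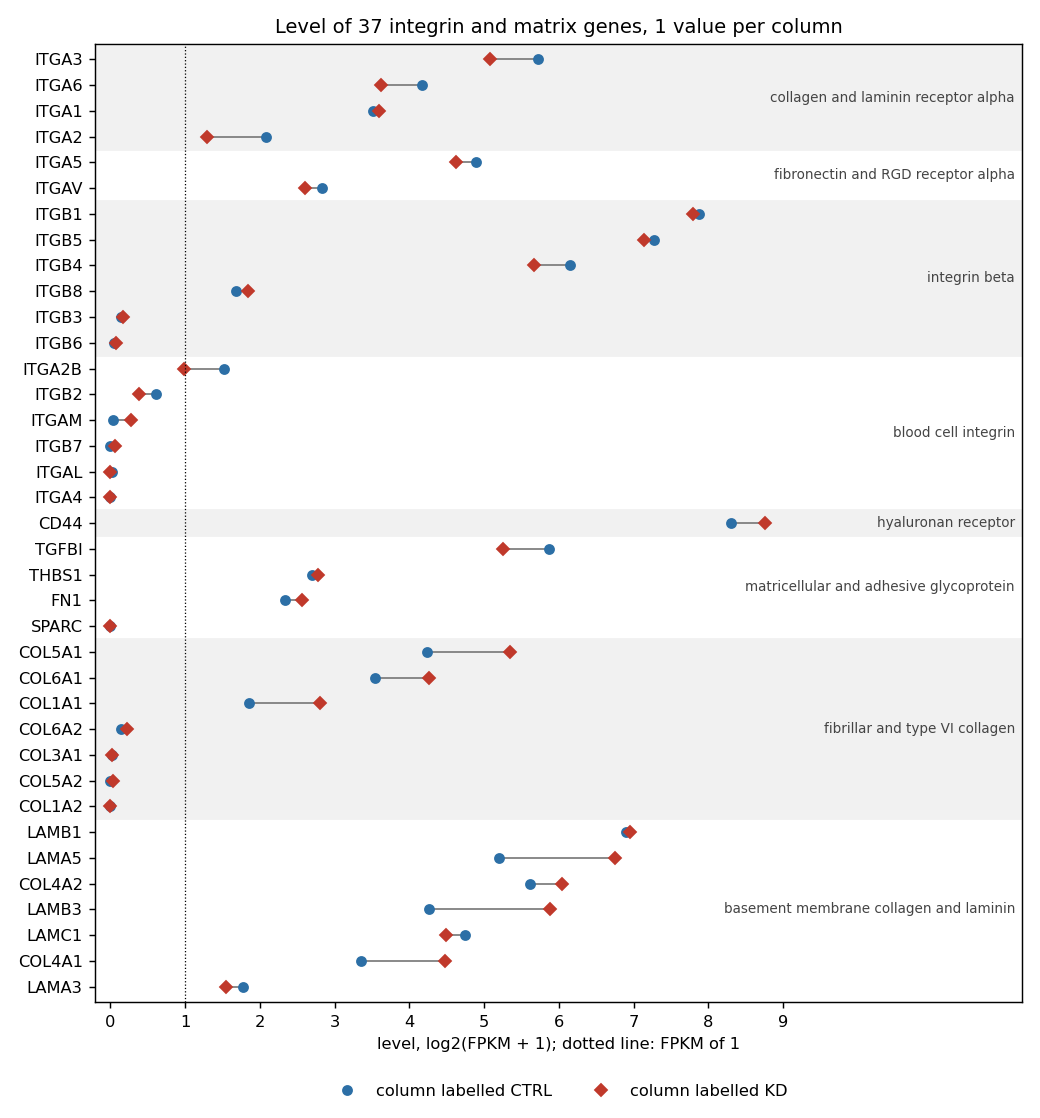
Level of each of the 37 genes as log2(FPKM + 1), 1 value in the column labelled CTRL (blue circle) and 1 in that labelled KD (red diamond), grouped by role and ordered by mean level within a role. CD44 and ITGB1 are farthest right, the blood cell integrins lie at or left of the dotted line at 1 FPKM apart from ITGA2B in CTRL, and the collagen points of KD lie to the right of those of CTRL where the gene is above 1 FPKM.

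Among the matrix genes, basement membrane chains led. LAMB1 was at 123 FPKM in KD (2220 counts) and 118 FPKM in CTRL (2008 counts), LAMA5 at 106 FPKM (2956 counts) and 35.9 FPKM (1377 counts), and LAMC1, the common gamma chain, at 21.5 FPKM (1606 counts) and 25.9 FPKM (1861 counts). These 3 chains can form 1 laminin trimer, and LAMB1 was 5.71 times LAMC1 in KD and 4.58 times in CTRL by FPKM, but 1.63 and 1.27 times by counts per kilobase of the longest annotated transcript. LAMB3, the beta chain of the epidermal laminin, was at 57.8 FPKM in KD (2157 counts) and 18.2 FPKM in CTRL (865 counts). Its usual alpha chain partner LAMA3 was low, at 1.93 FPKM in KD (37 counts) and 2.41 FPKM in CTRL (44 counts). LAMB3 was 29.9 times LAMA3 in KD and 7.57 times in CTRL by FPKM, and 144 and 48.6 times by counts per kilobase of the longest annotated transcript.

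Collagen chains were present without their usual partner chain in 3 of the 4 types that have more than 1 chain among these genes. The type IV chains of the basement membrane were both present, COL4A2 at 65.1 FPKM in KD (4833 counts) and 47.8 FPKM in CTRL (3628 counts), and COL4A1 at 21.3 FPKM (1664 counts) and 9.21 FPKM (736 counts). COL4A2 was 3.06 times COL4A1 in KD and 5.19 times in CTRL. In type I, the main fibrillar collagen of bone and skin, COL1A1 was at 5.96 FPKM in KD (409 counts) and 2.61 FPKM in CTRL (175 counts), while COL1A2, whose chain joins 2 COL1A1 chains in the usual trimer, had 0 counts in both columns. In type V, COL5A1 was at 39.7 FPKM in KD (2327 counts) and 17.8 FPKM in CTRL (1506 counts), while COL5A2 had 2 counts in KD and 0 in CTRL. In type VI, the beaded microfibril collagen, COL6A1 was at 18.2 FPKM in KD (488 counts) and 10.6 FPKM in CTRL (310 counts), and COL6A2 had 4 counts in each column. COL6A1 was 105 times COL6A2 in KD and 104 times in CTRL by FPKM, each ratio resting on those 4 counts. COL3A1, the fibrillar collagen of soft tissue, had 1 count in each column.

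Of the adhesive glycoproteins, TGFBI, a secreted protein that binds collagen and integrins, was highest, at 37.2 FPKM in KD (604 counts) and 57.2 FPKM in CTRL (884 counts). THBS1 (thrombospondin) was at 5.83 FPKM in KD and 5.46 FPKM in CTRL, and FN1 (fibronectin) at 4.94 FPKM (92 counts) and 4.05 FPKM (115 counts). SPARC, a collagen-binding protein of bone and basement membrane, had 0 counts in both columns. The fibronectin receptor chains ITGA5 and ITGB1 were therefore each listed above FN1 itself in both columns.

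αCP proteins bind C-rich single strands, and the study looked for a C-rich consensus around exons. The table holds no reads per exon, so exon use was not measured. As background to the 37 genes, the last 50 bases of the intron before each annotated cassette exon were searched for that consensus on the sense strand. A cassette exon is here an exon skipped in at least 1 coding transcript of GENCODE release 44, GRCh37. Only windows that end in AG were kept. Forms of an exon that differ at 1 end count separately, so some windows repeat or lie partly or wholly inside a longer form. Of 60 such exon forms in 21 of the 37 genes, 3 (5%) had a match, against 1487 of 20825 (7.14%) over all genes. The median C content was 26% against 22%. The 3 matching introns are shown first, with the consensus in capitals, because they are the places among these genes where a match precedes an exon that can be skipped. The intron before the fibronectin exon known as EDA and that before a late exon of ITGA6, which both lack the consensus, follow for contrast.
ITGA3 intron end, chr17:48165539-48165588, plus strand: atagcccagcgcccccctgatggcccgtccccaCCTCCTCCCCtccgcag
FN1 intron end before EDB, chr2:216257927-216257976, minus strand: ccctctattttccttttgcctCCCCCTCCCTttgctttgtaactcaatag
ITGAV intron end, chr2:187516659-187516708, plus strand: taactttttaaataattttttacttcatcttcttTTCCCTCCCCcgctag
FN1 intron end before EDA, chr2:216245804-216245853, minus strand: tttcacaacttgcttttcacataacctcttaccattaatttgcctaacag
ITGA6 intron end, chr2:173366450-173366499, plus strand: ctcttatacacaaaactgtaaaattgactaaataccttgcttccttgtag
The ITGA3 exon (chr17:48165589-48165730) is 142 bases long and follows the most C-rich of these 5 stretches, with 56% C. The FN1 EDB exon (chr2:216257654-216257926) is 273 bases long and follows 38% C, and the ITGAV exon (chr2:187516709-187516816) is 108 bases long and follows 28% C. CD44, the gene with the most annotated cassette exon forms of the 37, had 12, none with the consensus, and a median of 23% C before them. A match describes letters of the reference genome and is not evidence of binding.

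The KD to CTRL comparison asked which adhesion genes differ between both columns as labelled. By FPKM, matrix genes were mostly higher in KD and integrins mostly lower, with small differences for most; the integrins were also mostly lower by counts. Ratios are given as log2((FPKM in KD + 1)/(FPKM in CTRL + 1)) where the mean FPKM of a gene was 1 or more, a scale that understates the difference of low genes. Of the 37 genes, 25 passed this filter and 12 did not. With a log2 ratio of 1 or more taken as higher, 4 of the 25 were higher (LAMB3, LAMA5, COL4A1 and COL5A1), against 8.51% of the 13741 genes that passed. With −1 or less taken as lower, none of the 25 was lower, against 3.27% of all. The median of the 25 was 0.06 and that of all genes 0.01, with 13 of the 25 above 0 and 12 below. Because there is 1 value per group, these shares describe the 2 columns and not the conditions. In bulk RNA, fewer cells of a type and less RNA per cell cannot be told apart. The locus of 26 of the 37 genes also holds another row of the table, which alone does not show an overlap. Without strand information, reads from overlapping genes cannot be separated.

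Among the 13 matrix genes that passed, 10 were above 0 and 3 below, with a median of 0.44. LAMB3 (chr1:209788214-209825811, hg19) had the largest log2 ratio of the 25 genes, 1.61, a 3.17-fold higher FPKM in KD. LAMA5 (chr20:60877148-60942368) followed with 1.54, a 2.97-fold higher FPKM. All 5 collagens that passed were above 0, with a median of 0.95: COL4A1 1.12, COL5A1 1.12, COL1A1 0.95, COL6A1 0.72 and COL4A2 0.44. They were also all above 0 by count share, and 4 of 5 after the GC and length trend described further on was removed, with COL4A2 at −0.04. COL1A1 and COL4A1 thus lie just below and just above the limit of 1. FN1 was at 0.23, THBS1 at 0.08 and LAMB1 at 0.06. TGFBI, at −0.61, was the lowest of the matrix genes, followed by LAMC1 at −0.25 and LAMA3 at −0.22.

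Among the 11 integrins that passed, 2 were above 0 and 9 below, with a median of −0.27. The alpha chains had a median of −0.54, with ITGA2 lowest at −0.79, then ITGA3 at −0.64, ITGA6 at −0.55, ITGA2B at −0.54, ITGA5 at −0.27 and ITGAV at −0.22. ITGA2B, whose value is that median, rests on 4 counts in KD and 6 in CTRL and passed the filter through CTRL alone. ITGA1 was the alpha chain above 0, at 0.07. The beta chains had a median of −0.11, with ITGB4 at −0.48, ITGB5 at −0.14, ITGB1 at −0.08 and ITGB8 at 0.16. CD44 was at 0.46.

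FPKM and counts did not give the same order, so the estimated counts were also compared as shares of their column total, with 95% exact binomial intervals that cover counting error only. Division by the totals lowers the log2 ratio of every gene by 0.23, and on that scale the median of all genes was −0.21, with 61.9% of them below 0, so a value is read against that median rather than against 0. All 11 integrins were below 0 with a median of −0.41, and ITGA1 at −0.13 and ITGB4 at −0.09 (−0.21 to 0.03) lay above the median of all genes. ITGA2 was the 1 adhesion gene lower than −1, at −1.39 (−1.69 to −1.10), against 9.83% of all genes. ITGA6 was at −0.83 (−0.96 to −0.69) and ITGA5 at −0.82 (−0.93 to −0.70). ITGA2B, with 4 and 6 counts, had an interval of −3.08 to 1.26. The matrix genes split into 7 above and 6 below 0, with a median of 0.18. LAMB3 was the 1 adhesion gene higher, at 1.09 (0.97 to 1.20), against 6.92% of all genes, while LAMA5 was at 0.87 (0.78 to 0.97), COL4A1 at 0.95 (0.82 to 1.07), COL1A1 at 0.99 (0.74 to 1.26) and COL5A1 at 0.40 (0.30 to 0.49). FN1 was at −0.55 (−0.96 to −0.14) and CD44, at −0.17 (−0.22 to −0.12), lay near the median of all genes.

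Without that division, with the counts as deposited, the median of all genes was 0.02, the matrix genes had 9 above and 4 below 0, and the integrins 2 above and 9 below. On this scale LAMB3 (1.32), COL1A1 (1.22), COL4A1 (1.18) and LAMA5 (1.10) were higher, against 11% of all genes, and ITGA2 was lower at −1.16, against 5.57%. COL5A1, which was higher by FPKM, was at 0.63, CD44 was at 0.06, and FN1, at −0.32, was on the other side of 0 from its FPKM ratio. Over all genes, 951 were higher and 1351 lower by count shares, against 1169 and 450 by FPKM. LAMB3 was thus higher on all these scales. ITGA2, ITGA3, ITGA5, ITGA6, ITGAV, ITGB1, ITGB5, TGFBI and LAMC1 were below 0 and below the median of all genes on each. So were ITGA2B and LAMA3, whose count share intervals include 0. The 2 count scales differ by the same 0.23 for every gene, so they are not separate checks. With the GC and length trend described further on removed, ITGAV was at 0.12 and ITGB1 at 0.18, above 0.

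**Figure D3:**
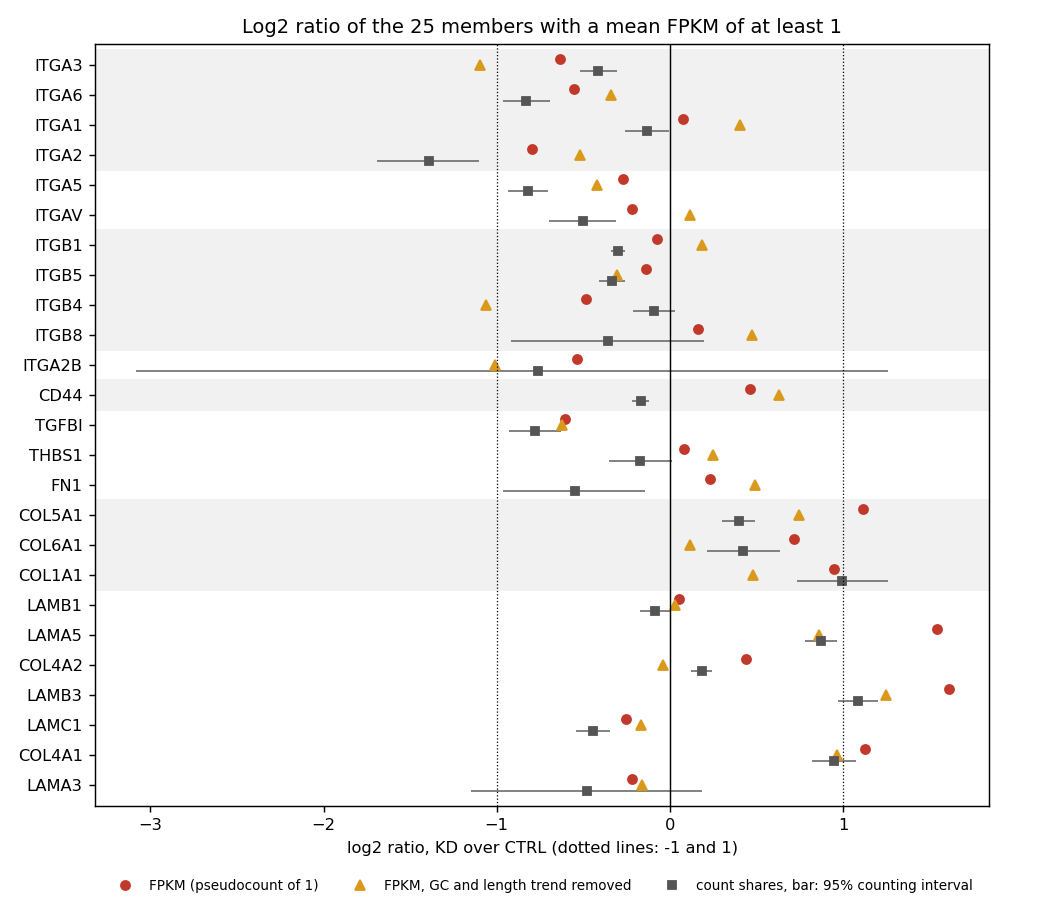
Log2 ratio of KD over CTRL for the 25 genes that passed the filter of a mean FPKM of 1: FPKM with a pseudocount of 1 (red circle), the same after removal of the trend with GC content and length (orange triangle), and count shares with their 95% counting interval (grey square and bar). LAMB3 lies right of 1 on all 3 scales, ITGA2B has the widest bar, and FN1 and CD44 lie right of 0 by FPKM and left of 0 by count share, a scale on which the median of all genes is −0.21.

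The ratio also moved with base composition. Across the genes that passed and had an annotated transcript, the Spearman correlation of the log2 ratio with the GC content of the longest transcript was 0.445, a description across genes, which are not independent. From the lowest to the highest of 4 GC bins of equal size, the median log2 ratio of all genes was −0.24, −0.13, 0.09 and 0.47, and the share of genes higher was 1.62%, 3.85%, 7.46% and 20.7%. Of the 25 adhesion genes, 9 lay in the GC-richest bin, where their median was 0.72, and 3 of the 4 higher genes were there: LAMA5 (66.4% GC), COL5A1 (60.2%) and LAMB3 (58.9%). COL4A1 (55.2%) lay in the bin below. In the same GC-richest bin ITGA3 (61.3%), ITGB4 (63.6%) and ITGA2B (60.8%) were below 0. After removal of a trend with GC content and length fitted over all genes, LAMB3 alone was higher, at 1.25, with COL4A1 at 0.96, LAMA5 at 0.86 and COL5A1 at 0.75. That compares with 5.45% of all genes higher on this scale. ITGA3 at −1.10, ITGB4 at −1.06 and ITGA2B at −1.01 were then lower, against 3.41% of all genes, and ITGA2B rests on 4 and 6 counts and passed the filter through CTRL alone. COL4A2, ITGAV and ITGB1 changed sign, the matrix genes had 9 above and 4 below 0 with a median of 0.25, and the integrins 4 above and 7 below. What gave rise to the GC trend was not tested.

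**Figure D4:**
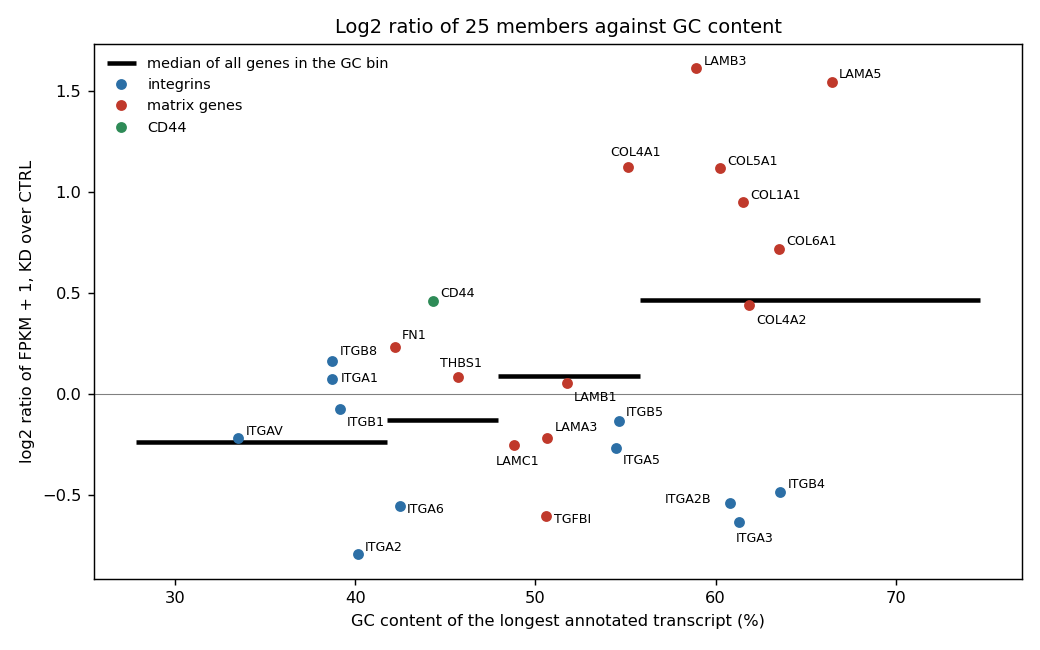
Log2 ratio of FPKM + 1 (KD over CTRL) of the 25 genes against the GC content of their longest annotated transcript in percent, with integrins in blue, matrix genes in red and CD44 in green; the black bars span the 4 GC bins of all genes at their median ratio. COL1A1, COL5A1, COL6A1, LAMA5 and LAMB3 lie above the GC-richest bar, COL4A2 just under it and COL4A1 above the bar before it, and ITGA3, ITGB4 and ITGA2B lie below it at similar GC content.

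FPKM is a count per length and depth, so the ratio of count to FPKM implies a length. For 9 of the 23 adhesion genes with at least 50 counts in both columns (39.1%), this ratio differed between the columns by 0.25 or more on the log2 scale, against 15.2% of the 10922 genes of that depth. In 7 the count per FPKM was lower in KD: FN1 by a log2 difference of −0.61, COL5A1 −0.53, LAMA5 −0.47, CD44 −0.40, ITGB8 −0.36, LAMB3 −0.34 and ITGA5 −0.31. It was higher in 2, ITGB4 at 0.63 and ITGA3 at 0.47, and the median over all genes was 0.00. Among these 9 are 3 of the 4 genes that were higher by FPKM.

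Expressed as a length (the count divided by the FPKM, at the geometric mean depth of both columns), CD44 implied 1.34 kb in KD and 1.77 kb in CTRL, where its longest annotated transcript has 5.43 kb. FN1 implied 1.47 and 2.25 kb of 9.17 kb, LAMA5 2.20 and 3.04 kb of 11.4 kb, and LAMB1 1.43 and 1.34 kb of 6.74 kb. COL4A1, at 6.19 and 6.32 kb of 6.54 kb, and ITGA2, at 7.70 kb in both columns of 7.84 kb, implied nearly full length. ITGA3 implied 3.16 kb in KD and 2.28 kb in CTRL of 5.48 kb, and ITGB4 1.82 and 1.17 kb of 5.90 kb. Of the 23 genes, 9 implied under 50% of their longest transcript on average, and the median was 67.0%, close to the 63.3% of all genes and below the 89.4% of 806 genes with 1 annotated transcript. On CPM per kilobase of the longest transcript, ITGB1 (125 in KD, 154 in CTRL) led CD44 (98.5 and 111), LAMB1 dropped to 24.1 and 25.5, and FN1 to 0.732 and 1.07, so the order of the highest genes depends on the transcript length used. What gave rise to the difference in implied length was not tested.

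**Figure D5:**
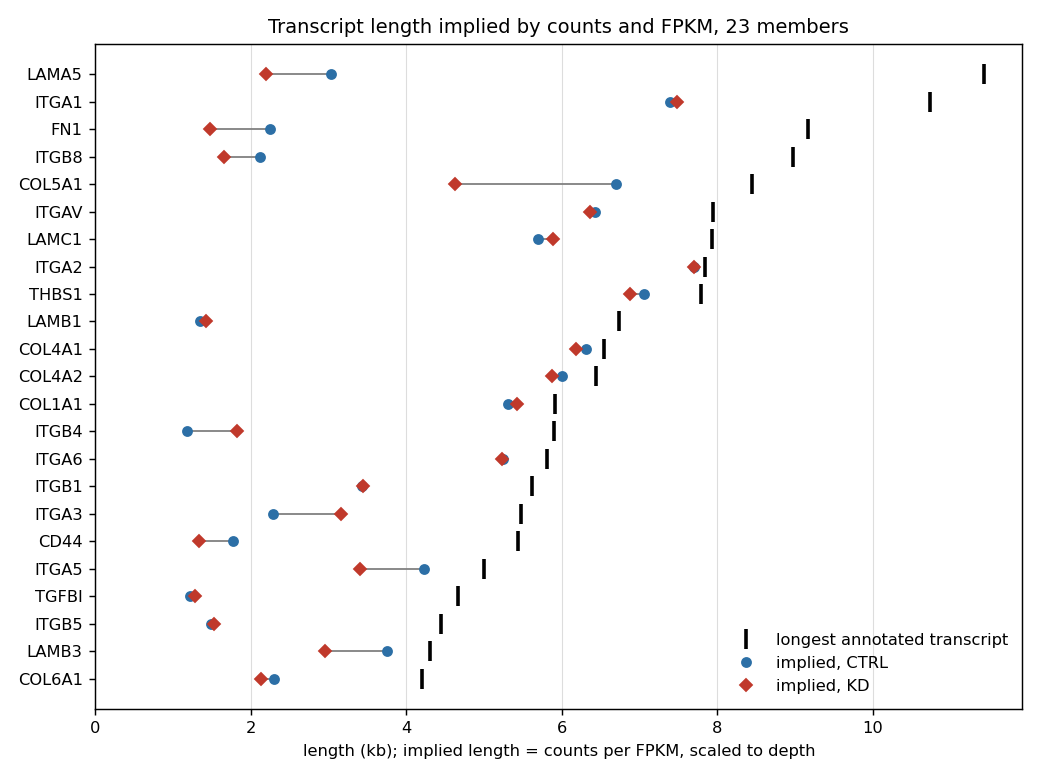
Transcript length in kilobases implied by count and FPKM in the column labelled CTRL (blue circle) and KD (red diamond) for 23 genes with at least 50 counts in both columns, beside the longest annotated transcript (black tick), ordered by that length. FN1, LAMB1, LAMA5 and CD44 lie far left of their ticks, COL4A1 and ITGA2 close to them, and COL5A1 has the widest gap between the columns.

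COL4A1 and COL4A2 are transcribed in opposite directions from 1 shared start region and share 1 locus of the table, and the library kit did not mark strand. Their log2 ratios were 1.12 and 0.44 by FPKM, and 0.95 (0.82 to 1.07) and 0.18 (0.12 to 0.25) by count share. The intervals of both neighbours, computed from the counts as deposited, did not overlap. In the RefSeq annotation of GRCh38.p14 the starts lie 127 bases apart, and the stretch between them is printed because both genes start at its ends; capitals mark a CCAAT box and a GGGCGG box, each read on the opposite strand.
COL4A1 and COL4A2 starts, chr13:110307157-110307284, minus strand: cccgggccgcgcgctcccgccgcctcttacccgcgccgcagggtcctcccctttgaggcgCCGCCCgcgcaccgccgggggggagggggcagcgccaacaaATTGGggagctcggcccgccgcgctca
The COL4A1 promoter window (250 bases before to 50 after its start) had 76.7% GC, higher than 93.4% of 27305 RefSeq promoter windows, whose median was 58.3%. It held CCAAT, present on either strand in 35.7% of those windows, and GGGCGG at 2 places, present in 44.6%, and it did not hold TATAA, present in 21.1%. The motifs do not overlap, and no binding was measured.

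The machinery on either side of these genes was present. Of 20 focal adhesion genes, which link integrins to actin, 19 had at least 1 FPKM in both columns, led by filamin FLNA (929 FPKM in KD, 878 in CTRL), the actinin ACTN4 (506 and 313 FPKM) and zyxin ZYX (181 and 64.8 FPKM). Their median log2 ratio was 0.02, with 10 above 0, 9 below, 2 higher (ZYX 1.47 and BCAR1 1.11) and 0 lower. By count share ZYX was at 1.24 and BCAR1 at 0.99. With the GC and length trend removed ZYX was at 0.82 and BCAR1 at 0.54, so neither passed the limit of 1. A pair among 19, as by FPKM, is near the 8.51% of all genes that were higher. FERMT2, the kindlin of adherent tissues, was at 31.5 FPKM in KD and 36.6 FPKM in CTRL, and FERMT3, the kindlin of blood cells, at 0.754 and 0.110 FPKM. Of 16 genes that modify, fold or crosslink collagen, 15 had at least 1 FPKM in both columns, led by the prolyl hydroxylase subunit P4HB (435 FPKM in KD, 251 in CTRL), CRTAP (150 and 150 FPKM) and the lysyl hydroxylase PLOD3 (137 and 78.4 FPKM). The collagen chaperone SERPINH1 was at 120 and 72.4 FPKM. Of the 15, 10 were above 0 and 5 below, with a median of 0.22, and none was higher or lower by the limit of 1. With the GC and length trend removed the median of the 15 was 0.05.

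Of 35 other matrix genes, 19 had at least 1 FPKM in both columns and 8 were listed at 0 in both. The highest were the fibulins FBLN1 (235 FPKM in KD, 133 in CTRL) and EFEMP1 (190 and 173 FPKM) and the matricellular gene CCN1 (211 and 81.3 FPKM). Of the 19, 15 were above 0 and 4 below, with a median of 0.55, and CCN1 at 1.36 and HSPG2, the basement membrane proteoglycan perlecan, at 1.13 were higher. On count shares CCN1 was at 1.15 and HSPG2 at 1.05. Here too the number higher by FPKM is near the 8.51% of all genes. With the GC and length trend removed CCN1 was at 1.41 and HSPG2 at 0.59, and the median of the 19 was 0.18. DCN, at 1.11, then passed the limit of 1 beside CCN1, against 5.45% of all genes. Of 17 genes of matrix turnover, 7 passed, led by the protease inhibitor TIMP1 (635 FPKM in KD, 428 in CTRL), the protease CTSL (73.8 and 113 FPKM) and the inhibitor TIMP2 (52.4 and 122 FPKM). TIMP2 was lower, at −1.21 by FPKM, −1.43 by count share and −1.35 with the GC and length trend removed. The median of the 7 by FPKM was −0.58. The matrix proteases MMP1, MMP2, MMP3 and MMP10 had 0 counts in both columns.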

How the data were processed

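RNA-seq libraries (paired-end, TruSeq RNA kit, which does not mark strand) came from 3 control and 3 αCP1/2 siRNA transfections of K562. The authors aligned reads to hg19 with TopHat 1.4.1 and quantified Ensembl genes with Cuffdiff 2.2.0, per the submitters' processing notes. The deposited table holds 1 FPKM value and 1 estimated count per gene and group; how 3 libraries became 1 value is not given in the sources used here. Of the positive estimated counts deposited, 85.6% (KD) and 86.9% (CTRL) were whole within 0.01. Its columns of average, largest and smallest FPKM, fold change, p-value and FDR were not used.

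Log2 ratios used FPKM with a pseudocount of 1 and a mean FPKM of at least 1. The binomial intervals of count shares and the Poisson limits cover counting error only, and 0.5 counts were added to each count for a share. GC content and length are those of the longest transcript in GENCODE release 44 on GRCh37, found for 96.8% of the genes that passed and all 37 members. A GC and length trend was fitted over all genes. Scripts (Python 3.11.15, pandas 2.3.3, scipy 1.17.1) were tested on simulated data. The 37 genes, their roles and all lists were chosen with earlier results of these data known. All 37 are named, as are the leading genes of each list and those past the limit of 1; FERMT2, FERMT3, SERPINH1 and the marker genes given were named after their values were seen. Alternatives were a pseudocount of 0.1, other FPKM limits, no filter, centring on the median, count shares and the removed trend; undivided counts and counts per kilobase were chosen after seeing the data.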

Additional observations from a re-analysis of the deposited data

How the results depend on the processing

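No paired analysis was possible because each group has a single value per gene, and leaving out a replicate was not run for the same reason. With a pseudocount of 0.1, 1 of the 25 genes was lower rather than 0 (ITGA2 at −1.11), and 791 rather than 450 of all genes. On that setting 5 of the 25 were higher rather than 4, with COL1A1 now at 1.16, and 1549 rather than 1169 of all genes. With count shares the median of the 25 genes was −0.30 rather than 0.06, 1 was higher and 1 lower rather than 4 and 0, and 1351 of all genes were lower. Their split of 951 higher to 1351 lower compares with 1169 to 450 by FPKM. With the GC and length trend removed, 1 was higher and 3 lower, and 725 rather than 1169 of all genes were higher. With the counts as deposited, an alternative chosen after seeing the data, 4 were higher and 1 lower, and 765 of all genes were lower. With an FPKM over 5 in at least 1 column, 292 of the 9978 genes then left were lower, a smaller number from fewer genes. The other settings left these counts within 1.5 times. Of the 25 genes, the log2 ratio changed sign for 6 with count shares, where division by the totals lowers every gene by 0.23, and CD44, ITGA1, LAMB1 and THBS1 of these were above 0 with the counts as deposited. It changed sign for 3 with the trend removed, for 3 with the counts as deposited (FN1, ITGB4 and ITGB8) and for 0 with centring or the smaller pseudocount. The cause of the other shifts was not tested. Depth limits ITGA2B most, with 4 and 6 counts.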
